A study of Mus musculus with 20 samples.

Results

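The difference between 66cl4 and 67NR mammary tumours was measured separately in sorted CD45+ and CD45- cells, and the question here was which genes differed between the tumours in 1 gate, in both gates alike, or in opposite directions. All 20 libraries of the series were used. Each was placed by its title, which names the tumour (66 or 67), the animal and the gate (posCD45 or negCD45). The title of 1 library, of 66cl4 animal 5, ends in negCD46, and it was taken as CD45-. The tumour effect is the log2 fold change of 66cl4 over 67NR within a gate, and its difference between the gates is the value in CD45+ cells minus the value in CD45- cells. Of 52783 genes in the table, 16453 passed the filter on low counts and were tested, and 13212 of these were measured in both gates.

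66cl4 and 67NR are cell lines of the 4T1 mouse breast cancer model, of which 66cl4 tumours metastasise and 67NR tumours do not. Female BALB/cJ mice received 1000000 cells of 1 line in the mammary fat pad and no treatment, and 5 tumours of each line were sorted into CD45+ and CD45- cells, which gave 4 groups of 5 libraries (66cl4 CD45+, 67NR CD45+, 66cl4 CD45- and 67NR CD45-). Each tumour type is represented by 1 cell line, so the metastatic behaviour and the line cannot be told apart. No marker separated cancer cells from fibroblasts, endothelial cells or other stroma, so the CD45- gate holds all of them.

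CD45, encoded by Ptprc, is a phosphatase on the surface of all leukocytes, and sorting on it divides a tumour into infiltrating immune cells on the one hand and cancer cells with stroma on the other. Both compartments respond to the same surroundings: low oxygen induces glycolytic genes and Vegfa through HIF transcription factors, and interferons induce antiviral genes and antigen presentation in almost every cell. In bulk samples fewer cells of a type and less RNA per cell cannot be told apart.

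Leukocyte genes followed the gates, whereas genes of other cell types did so to unequal degrees. Ptprc was at 15890 to 28449 normalised counts (counts divided by DESeq2 size factors) in the 10 CD45+ libraries and at 10.6 to 473 in the 10 CD45- libraries. Over 10 genes that most leukocytes express, the CD45- level was 0.244 to 2.45% of the CD45+ level in 66cl4 tumours and 0.990 to 2.91% in 67NR tumours. Mast cells departed from this: their 8 genes summed to 25.8% of the CD45+ level in 67NR CD45- cells against 0.717% in the same gate of 66cl4. In the other direction, fibroblast genes were used that had at least 200 normalised counts in CD45- cells and a lower level in CD45+ cells, which left out Thy1. Their CD45+ level was 4.03 to 8.81% of the CD45- level in 66cl4 tumours (8 genes) and 5.41 to 16.5% in 67NR tumours (10 genes). These shares are called the leukocyte range and the fibroblast range below, and the part of sorting purity in any single call was not tested. Endothelial genes followed the gates unevenly. The CD45+ sum of the 12 genes was 136% of the CD45- sum in 66cl4 tumours and 62.2% in 67NR tumours. Taken gene by gene, the median CD45- level was 133% of the CD45+ level in 66cl4 and 687% in 67NR. The epithelial sum in CD45+ cells was 11.9% of that in CD45- cells in 66cl4 and 97.7% in 67NR, where it was low in both. Epithelial genes were few: of 13 markers 7 could be tested, Krt5, Krt7, Cldn3, Cldn4, Cldn7 and Esrp1 were too low for the test, and Krt8 and Krt18 carried most of the signal. Red cell genes summed to up to 5322 in CD45- libraries of 66cl4, where the median was 49.9, and to up to 4810 in those of 67NR, where it was 459.

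The tumour effect differed between the gates for 7098 genes, 43.1% of those tested (edgeR interaction, adjusted p under 0.05). It was more positive in CD45+ cells for 3605 genes (21.9%) and more negative for 3493 (21.2%). Taken by gate, with an absolute log2 fold change over 1 as well, CD45+ cells of 66cl4 tumours had 1008 genes higher (6.13%) and 1525 lower (9.27%), and CD45- cells had 2009 higher (12.2%) and 3284 lower (20%). The same mouse gave both libraries of a tumour, so the log2 ratio of CD45+ to CD45- could also be taken within each animal. For 5224 genes (31.8%) the 5 ratios of one tumour did not overlap the 5 of the other. The CD45- effects were the more numerous, and the median effect over all genes was 0.0045 in CD45+ cells and −0.069 in CD45- cells.

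The 13212 genes measured in both gates fell into classes of very unequal size. Opposite effects, called in both gates with different signs, were found for 147 genes, of which 108 were higher in CD45+ and lower in CD45- cells of 66cl4 tumours and 39 the reverse. Effects shared with 1 sign numbered 724, of which 387 (94 higher, 293 lower) had sizes that were not shown to differ and 337 (120 higher, 217 lower) had sizes that differed. A gene was placed in 1 gate only when it was called there, the difference was called, and the 95% interval of the other gate lay inside −1 to 1. This held for 225 genes in CD45+ cells (83 higher, 142 lower in 66cl4) and for 1763 in CD45- cells (893 higher, 870 lower). A further 211 genes called in CD45+ cells and 711 called in CD45- cells had an interval in the other gate that reached past 1, and were left unresolved. Differences were also called for 2766 genes that passed the fold threshold in neither gate. Without 66cl4 animals 5 and 6, whose recorded cell type contradicts the title, the class of CD45+ cells only held 127 genes, 98 of them among the 225, and that of shared effects of different size held 220, while the other classes stayed within 1.5 times their counts.

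**Figure D1:**
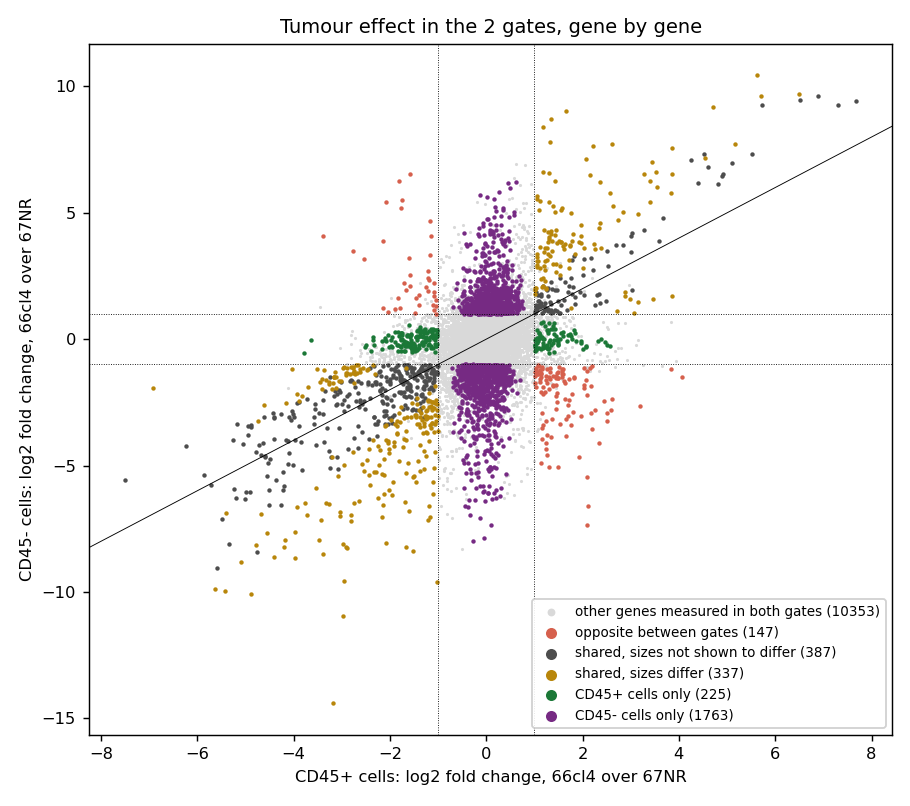
Tumour effect in CD45+ cells (x axis) and CD45- cells (y axis), both as log2 fold change of 66cl4 over 67NR, for the 13212 genes measured in both gates. Colours mark the 5 classes, dotted lines the fold threshold and the solid line equal effects. The 1763 genes of the CD45- class form a vertical band, and the 147 opposite genes lie in the upper left and lower right.

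Among the 10 opposite genes named, Vcan had the largest difference between the gates. It encodes versican, a large matrix proteoglycan that both fibroblasts and monocytes make. Its level was 22288, 11050, 24188, 10433 and 9071 in 66cl4 CD45+ cells and 5460, 3572, 3069, 4571 and 1224 in 67NR CD45+ cells. In CD45- cells the order turned, with 81.0, 87.9, 130, 72.2 and 188 in 66cl4 and 13296, 12469, 8272, 10952 and 10048 in 67NR. No library of one tumour overlapped the other in either gate, which the rule for naming these genes asked. The log2 effect was 2.12 ± 0.35 (SE) in CD45+ cells and −6.59 ± 0.44 in CD45- cells, a difference of 8.71 ± 0.56 (edgeR adjusted p = 4.2e-10).

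Cd36, the scavenger receptor that takes up fatty acids and lipoproteins, followed the same pattern at a lower size. In CD45+ cells it stood at 5534, 3541, 7999, 7542 and 3471 in 66cl4 and at 798, 825, 1255, 1329 and 758 in 67NR. The CD45- levels were 9.29, 65.5, 92.4, 24.4 and 109 in 66cl4 and 894, 963, 381, 529 and 177 in 67NR. Neither gate showed overlap, again as the rule asked, and the difference of the effects was 5.75 ± 0.68 (edgeR adjusted p = 1.86e-06). Cd36 is also made by endothelial cells and adipocytes. Of 12 endothelial genes, 9 were lower in 66cl4 CD45- cells (20% of all genes were) and 1 was lower in CD45+ cells (9.27%), and whether such cells carry the Cd36 value was not tested.

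Cd80, the ligand on antigen-presenting cells for CD28 and CTLA-4, had a mean of 3344 in 66cl4 and 734 in 67NR CD45+ cells, against 18.6 and 226 in CD45- cells. The 67NR CD45- level was 30.8% of that in CD45+ cells, above the leukocyte range. Jam2, a junctional adhesion molecule, and Slc4a11, a membrane transporter, completed the 5 genes named in this orientation, with differences of 5.45 ± 0.62 and 6.44 ± 0.55. Their libraries were separate in both gates, as the rule for naming them asked.

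Vegfa, the main angiogenic growth factor and a HIF target, was opposite as well. CD45+ cells of 66cl4 held 4014, 2468, 6343, 3529 and 2012 and those of 67NR 1658, 1158, 844, 605 and 300. CD45- cells of 66cl4 held 934, 1052, 1185, 1382 and 767 and those of 67NR 2632, 2181, 2822, 2276 and 2156. All CD45+ libraries lay above all CD45- libraries in 66cl4 and below them in 67NR. The effects were 2.03 ± 0.35 and −1.15 ± 0.34, a difference of 3.18 ± 0.49 (edgeR adjusted p = 3.6e-05). Mmp19, a matrix metalloproteinase, rose in CD45+ cells by 1.24 ± 0.29 and was lower in CD45- cells, at −4.36 ± 0.37. Among neutrophil genes Cxcr2, the receptor for CXCL1 and related chemokines, had effects of 2.04 ± 0.31 and −1.95 ± 0.32, and Csf3r, the receptor for G-CSF, had effects of 1.44 ± 0.36 and −1.44 ± 0.44. For Csf3r the 67NR CD45- level was 1.84% of the CD45+ level, inside the leukocyte range, and for Cxcr2 it was 35.4%. Of the 108 genes in this orientation, 12 lay inside that range.

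The reverse orientation was smaller in number. Tmem176a and Tmem176b are neighbouring genes of 4-pass membrane proteins found in dendritic cells and macrophages. Tmem176b stood at 1054, 1125, 1077, 744 and 1339 in 66cl4 CD45+ cells and at 3011, 4683, 3804, 3225 and 5415 in 67NR CD45+ cells. In CD45- cells it was at 3570, 3592, 3164, 3534 and 3004 in 66cl4 and at 1013, 1622, 1706, 1810 and 1281 in 67NR. The effects were −1.90 ± 0.18 and 1.21 ± 0.18, a difference of −3.11 ± 0.26 (edgeR adjusted p = 1.1e-08). Tmem176a moved with it, with effects of −1.78 ± 0.14 and 1.23 ± 0.14.

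Abca9, a lipid transporter of the ABC family, had a difference of −3.92 ± 0.36. The 66cl4 levels were nearly the same in the 2 gates (means of 477 and 475), whereas 67NR had 1568 in CD45+ and 103 in CD45- cells. Enpp4, an ectoenzyme that cleaves purine nucleotides, had effects of −1.21 ± 0.18 and 2.43 ± 0.18, and Arhgef10 had effects of −1.40 ± 0.16 and 1.75 ± 0.16. None of the 39 genes of this orientation lay inside the leukocyte or the fibroblast range, beside 748 and 750 of the 16453 genes tested. The class leaves little room for this, since both of its effects raise the shares that are compared with the ranges. No conclusion on carried-over cells is drawn from it.

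**Figure D2:**
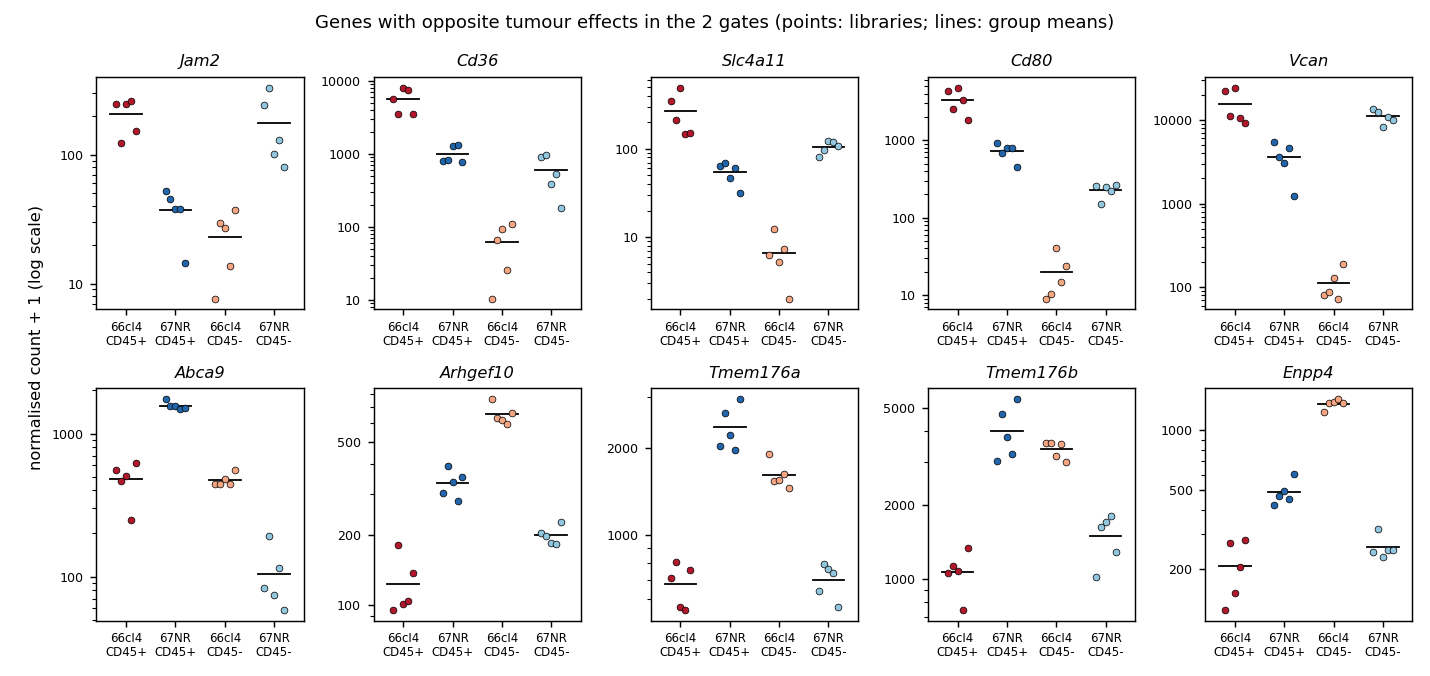
Normalised counts plus 1 (y axis, log scale) of 10 genes with opposite tumour effects in the 4 groups (x axis). Each point is 1 of 5 libraries and each line the group mean. In the upper row 66cl4 lies above 67NR in CD45+ cells and below it in CD45- cells, and in the lower row the order is turned.

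The genes named for effects in CD45+ cells only were of several kinds, Fn1 and Spon1 of the matrix and the adhesion molecule Vcam1 among them. Fn1, encoding fibronectin, was at 132613, 66935, 154770, 60389 and 96358 in 66cl4 CD45+ cells and at 18059, 26623, 15444, 14130 and 12441 in 67NR CD45+ cells. Its CD45- levels were 102170, 69806, 81978, 57810 and 78656 in 66cl4 and 78550, 106202, 89056, 103730 and 100757 in 67NR. The tumours were separate in CD45+ cells, as the rule for naming asked, and overlapped in CD45- cells. The effect was 2.57 ± 0.25 in CD45+ cells against −0.26 in CD45- cells, where the 95% interval was −0.76 to 0.24, and the difference was 2.84 ± 0.35 (edgeR adjusted p = 2e-06).

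Dpep2, Ackr3 and Tgm2 were the other genes named as higher in CD45+ cells only. Dpep2, a dipeptidase that converts leukotriene D4, rose by 2.51 ± 0.23, Ackr3, a decoy receptor for CXCL12, by 2.39 ± 0.37, and Tgm2, the tissue transglutaminase that cross-links proteins, by 2.00 ± 0.24. Their CD45- effects were −0.23, −0.01 and −0.38. The class also held Pgk1, Pgam1 and Eno1 of glycolysis, the macrophage elastase Mmp12, the protease inhibitor Timp1 and Plaur, the urokinase receptor.

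Of the 4 genes named as lower in CD45+ cells only, Vcam1, the adhesion molecule for VLA-4 that also marks some tissue macrophages, had the largest effect. It stood at 121, 184, 137, 103 and 194 in 66cl4 and at 1889, 3389, 1514, 1334 and 2282 in 67NR CD45+ cells. CD45- cells held 422, 382, 352, 358 and 389 against 462, 658, 494, 736 and 466. The groups did not overlap in CD45+ cells, as the rule asked, nor in CD45- cells. The sizes were far apart, with −3.79 ± 0.25 against −0.54 ± 0.22. Spon1, the matrix protein spondin 1, had effects of −3.63 ± 0.26 and −0.04 ± 0.25. Rab27b, a GTPase of granule and exosome release, was at −2.39 ± 0.25 and −0.48 ± 0.24. Cald1, an actin-binding protein of smooth muscle and fibroblasts, was at −2.34 ± 0.37 and −0.22 ± 0.35. Its CD45+ level in 66cl4 was 5.60% of the CD45- level, inside the fibroblast range. The level behind its call was the higher one, in 67NR CD45+ cells, and lay above that range. The mean within-animal log2 ratio of CD45+ to CD45- of Cald1 in 67NR was −2.29. Of the 225 genes, 17 had the level behind their call inside the fibroblast range and 1 had it inside the leukocyte range.

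Effects in CD45- cells only were nearly all-or-none for the genes with the largest values. Ass1, argininosuccinate synthase, makes the precursor from which cells produce arginine. In 66cl4 CD45- cells it was at 0, 6.23, 4.16, 1.06 and 6.99 and in 67NR CD45- cells at 604, 905, 1299, 1205 and 971. CD45+ cells had 759, 719, 649, 606 and 553 in 66cl4 and 595, 814, 632, 671 and 712 in 67NR. Thus 3 groups lay at 553 to 1299 and 1 was near 0. The CD45- effect was −7.85 ± 0.32, the CD45+ effect −0.05 (95% interval −0.48 to 0.39) and the difference 7.81 ± 0.39 (edgeR adjusted p = 1.0e-11). Arg1, the arginase that breaks arginine down, was called in the other gate. It was 3.83 higher on the log2 scale in 66cl4 CD45+ cells and 0.67 in CD45- cells, which was not called. The difference of 3.16 was not called either, so Arg1 was in no class of 1 gate only. Its within-animal log2 ratios of CD45+ to CD45- did not overlap, at 5.98 to 7.81 in 66cl4 and 2.87 to 5.71 in 67NR.

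Gab3, an adaptor below the CSF1 receptor, and Tusc1, a candidate tumour suppressor, had the same form. Gab3 was at 1.06 to 4.99 in 66cl4 CD45- cells and at 189 to 400 in the 15 other libraries. Tusc1 was at 0 to 6.99 in 66cl4 CD45- cells and at 179 to 384 elsewhere. In the other direction Fam213a, a peroxiredoxin-like protein, was at 1952, 2248, 2594, 2568 and 2992 in 66cl4 and at 36.9, 33.0, 29.9, 34.4 and 32.7 in 67NR CD45- cells. Its effect was 6.23 ± 0.19 there and 0.63 ± 0.16 in CD45+ cells. Mob3b, of the MOB family of kinase partners, had effects of 6.18 ± 0.14 and 0.45 ± 0.11. Its CD45+ libraries did not overlap between the tumours either. The class asks for a CD45+ interval inside −1 to 1, not for an effect of 0. Tns4, a tensin of focal adhesions, was at 581 to 926 in CD45- cells of 66cl4 and 5.11 to 16.5 in those of 67NR, and its CD45+ effect was 0.50 ± 0.17. In 66cl4 tumours the CD45+ level was 11.6% of the CD45- level for Fam213a, 56.8% for Mob3b and 33.8% for Tns4, above the fibroblast range.

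**Figure D3:**
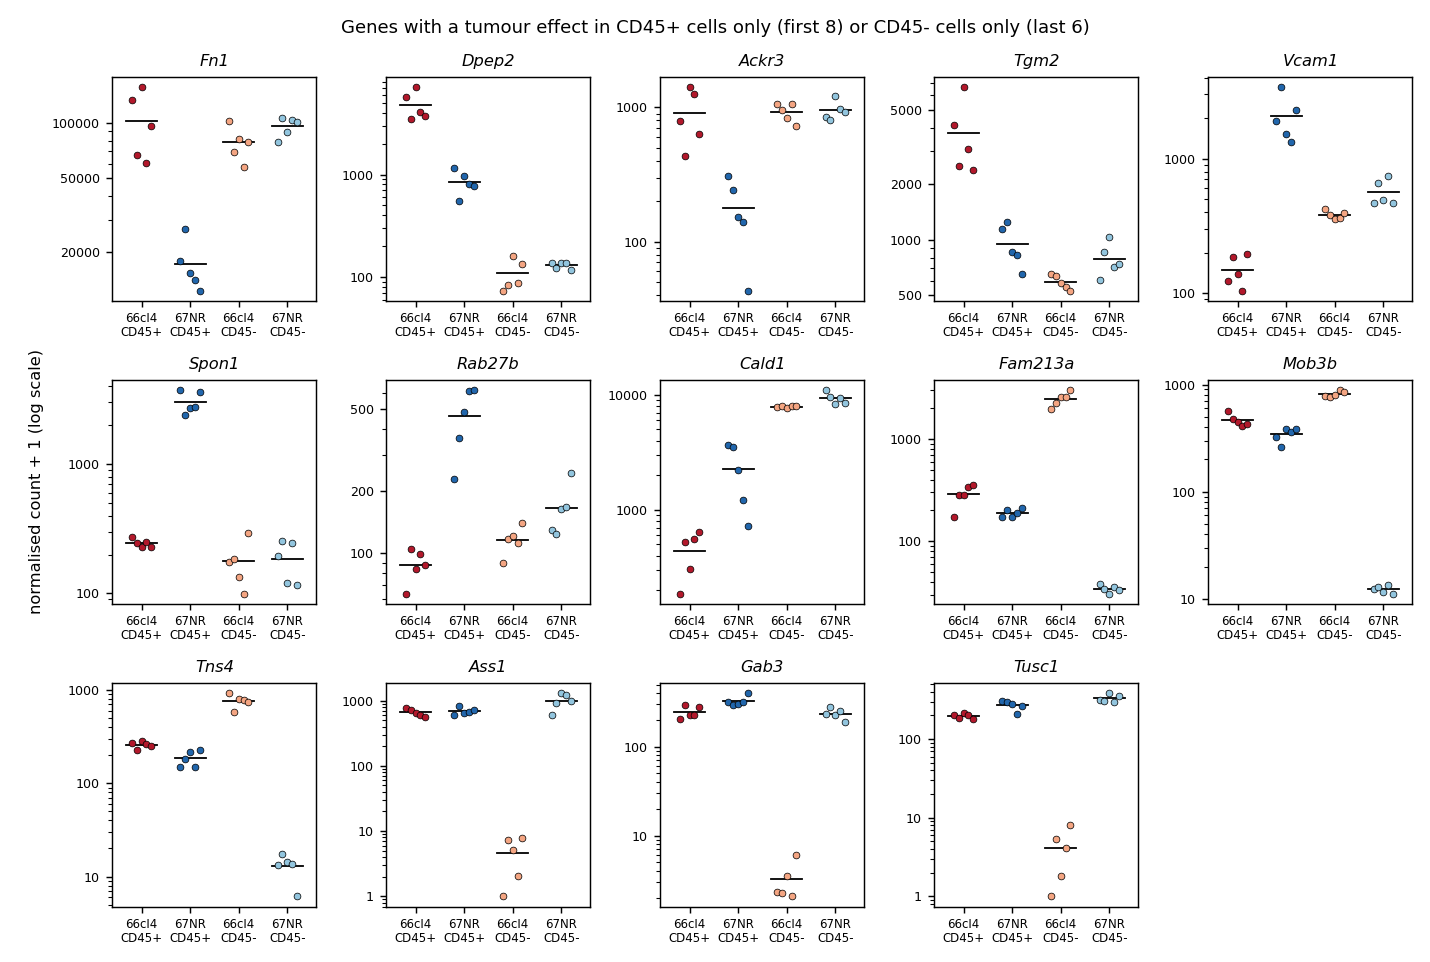
Normalised counts plus 1 (y axis, log scale) of 8 genes with a tumour effect in CD45+ cells only and 6 with one in CD45- cells only, in the 4 groups (x axis). Points are libraries and lines are group means. Fn1 is low in the 67NR CD45+ group alone, and Ass1, Gab3 and Tusc1 are near 0 in the 66cl4 CD45- group alone.

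Genes near 0 in 1 group were counted with a rule chosen after the values were seen: a mean under 10 in 1 group and of at least 100 in the 3 others. It found 44 genes low in 66cl4 CD45- cells, 12 low in 67NR CD45- cells, 2 low in 66cl4 CD45+ cells and 0 low in 67NR CD45+ cells. The 44 include Nlrc5, the transactivator of MHC class I genes, which was at 3.98, 6.23, 9.16, 2.12 and 5.99 in 66cl4 CD45- cells and at 390, 406, 303, 372 and 316 in 67NR CD45- cells. They also include Micu2, a regulator of mitochondrial calcium uptake, Pacs1, a sorting protein, Tnfsf12, the cytokine TWEAK, and the mast cell genes Cpa3, Cma1, Mcpt4 and Tpsb2. For the mast cell genes the level in 67NR CD45- cells varied widely: Cpa3 was at 96.5, 166, 1228, 1812 and 4736 there. The 12 include Eomes, a T-box transcription factor, with means of 190 in 66cl4 and 4.21 in 67NR CD45- cells, and Trim13, a ubiquitin ligase, with 362 and 7.80.

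Xist, the RNA that coats and silences 1 X chromosome in female cells, had an effect in CD45- cells only but did not meet the rule for genes near 0. In 66cl4 tumours its mean within-animal log2 ratio of CD45+ to CD45- was 6.15. Over the 10 leukocyte genes this ratio was 5.39 (Rac2) to 8.77 (Cytip). How much of the Xist level in 66cl4 CD45- cells came from leukocytes was not tested. Xist was at 419, 488, 743, 424 and 593 in 66cl4 CD45- cells, at 28720 to 40995 in 67NR CD45- cells and at 25504 to 44209 in CD45+ cells of both tumours. The difference was 6.15 ± 0.26 (edgeR adjusted p = 1.2e-12).

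Chromosomes had not entered the classes, and they were looked at after the values were seen. Chromosomes were taken from the GENCODE annotation of GRCm38 by gene identifier, for 16376 of the genes tested. Among genes measured in both gates, the median CD45- effect was 0.44 on chromosome 13, 0.39 on chromosome 8, 0.39 on chromosome 14, −0.26 on chromosome 10 and −0.39 on chromosome 15. In CD45+ cells the same medians were 0.08, 0.07, 0.08, −0.0033 and −0.07. The share of a chromosome's genes in the class of CD45- cells only and higher was 16.2% on chromosome 13, 16.0% on X and 1.95% on chromosome 15, against 6.75% over all, and the share that was lower was 2.99% on chromosome 13, 11.9% on chromosome 19 and 11.1% on chromosome 15, against 6.60% over all.

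In CD45- cells the libraries of the tumours lay well apart on chromosomes 8, 10, 13, 14 and 15. Each library's median deviation over the genes of a chromosome was taken from the mean of its gate and from the library's own median over all genes. In CD45- cells it was 0.18 to 0.27 on chromosome 13 for 66cl4 and −0.33 to −0.09 for 67NR, and on chromosome 15 it was −0.22 to −0.17 and 0.12 to 0.32. The 5 libraries of the tumours did not overlap for 19 of 20 chromosomes in CD45- cells and for 4 of 20 in CD45+ cells. Some gaps were narrow. On chromosome 5 in CD45- cells the highest 66cl4 value was 0.0052 and the lowest 67NR value 0.0056. On chromosome 18 in CD45+ cells the lowest 66cl4 value was 0.0045 and the highest 67NR value 0.0034. How often other gene sets of this size are separate was not tested. Genes of 1 chromosome are measured in the same libraries and are not replicates.

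**Figure D4:**
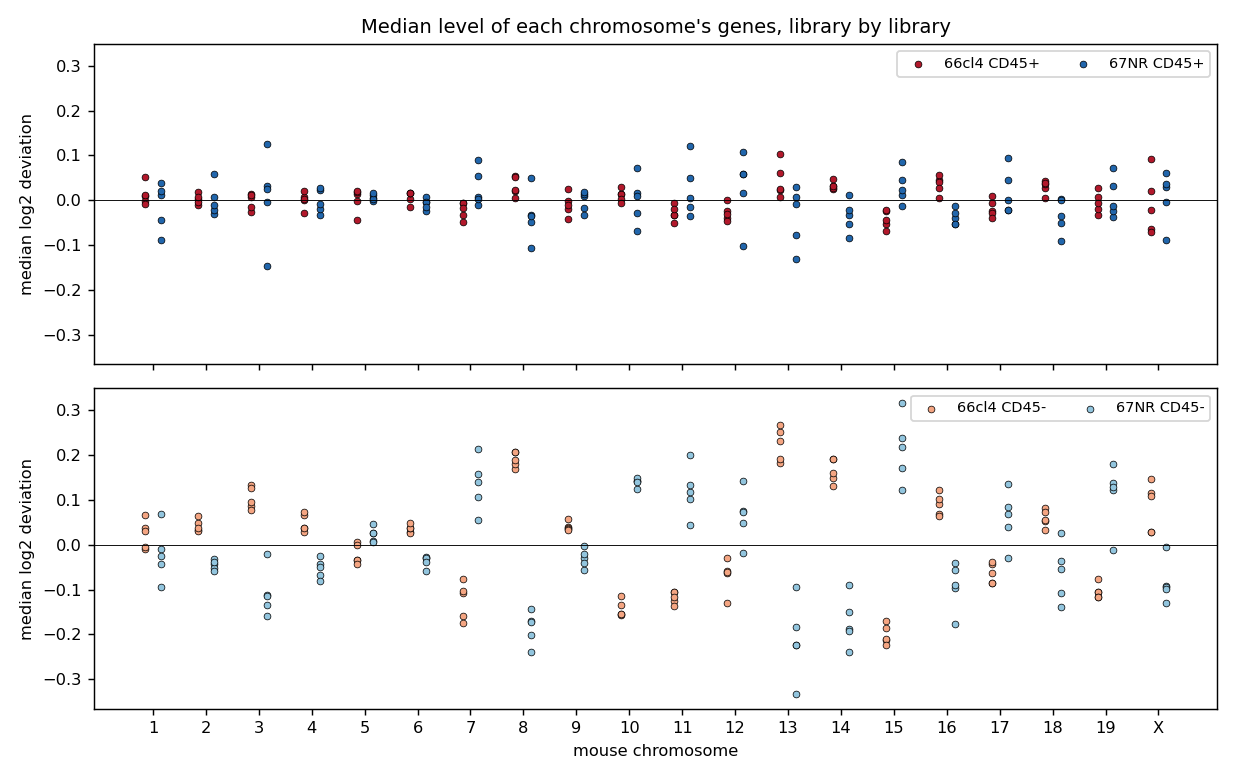
Median log2 deviation of the genes of each mouse chromosome (x axis) in each library, from the mean of the gate and the library's median over all genes (y axis), in CD45+ cells (upper panel) and CD45- cells (lower panel). Each point is a library. In CD45- cells the tumours are separate on 19 of 20 chromosomes, and in CD45+ cells on 4.

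Shared effects were led by genes whose CD45+ level was a small part of the CD45- level. Krt8, a keratin of simple epithelia, was at 75.1, 359, 256, 303 and 485 in 66cl4 and at 17.2, 17.6, 6.10, 5.99 and 5.14 in 67NR CD45+ cells. In CD45- cells it was at 5354, 5484, 5575, 5465 and 4886 in 66cl4 and at 44.8, 31.5, 70.2, 109 and 52.2 in 67NR. The CD45+ level of Krt8 in 66cl4 was 5.53% of the CD45- level, that of Sema3e, a secreted guidance cue, was 4.12% and that of Mgp, a matrix inhibitor of calcification, was 3.91%. These shares lie within or under the fibroblast range, and so did 149 of the 724 shared genes in CD45+ cells. Lower in both gates were Dpt, encoding the matrix protein dermatopontin (−5.41 ± 0.44 and −6.86 ± 0.44), Adamtsl3, an ADAMTS-like matrix protein (−5.42 ± 0.51 and −9.98 ± 0.60), and Pnma5, a paraneoplastic antigen family member (−5.70 ± 0.66 and −5.78 ± 0.55). In 67NR tumours, where these genes were higher, their CD45+ level was also well below the CD45- level. The mean within-animal log2 ratios of CD45+ to CD45- were −2.82 for Dpt, −2.81 for Adamtsl3 and −2.45 for Pnma5. Among fibroblast genes Pdgfra was at −2.94 and Col1a2 at −4.40 in 67NR. The part of carried-over cells in these effects was not tested. The difference called for Dpt was near the threshold (edgeR adjusted p = 0.048) and was not called under several alternatives.

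The gene lists for pathways of this tissue were chosen with earlier results of these data known, so the counts describe these libraries. Of 20 genes of hypoxia and glycolysis, 17 were higher in 66cl4 CD45+ cells (6.13% of all genes were) and 7 in 66cl4 CD45- cells (12.2%). Called lower in 66cl4 were 1 in CD45+ cells (9.27% of all genes) and 2 in CD45- cells (20%), Vegfa among the latter. Neutrophil genes moved with this list in CD45+ cells: 6 of 9 were higher in 66cl4, and their sum was 44355 to 125374 in 66cl4 (median 113260) and 7225 to 52470 in 67NR (median 16994). Their part in the result was not tested. The medians of the hypoxia and glycolysis list were 1.31 and 0.81, beside 0.0045 and −0.069 over all genes. Bnip3, a mitophagy receptor induced by HIF, was shared, at 1.80 and 2.05. Pgk1, phosphoglycerate kinase, had effects of 1.44 ± 0.17 and 0.39 ± 0.16, and Pdk1, which keeps pyruvate out of mitochondria, of 2.03 and 3.60. The effects differed between the gates for 10 of the 20, 7 more positive in CD45+ cells and 3 more negative, against 43.1% of all genes.

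For 12 of 16 genes of cholesterol synthesis the difference was called, and for all 12 the effect was more negative in CD45+ cells (21.2% of all genes). Idi1, isopentenyl diphosphate isomerase, had 1165 to 2736 in CD45- cells of 66cl4 and 230 to 643 in those of 67NR, against 951 to 1373 and 1072 to 2621 in CD45+ cells. The genes called, Idi1, Hmgcs1, Cyp51 and Mvd, were higher in 66cl4 CD45- cells (4 of 16, beside 12.2% of all genes). In CD45+ cells 0 of 16 were called. The median effects were −0.29 and 0.78. Of 22 cell cycle genes 6 had a called difference (27.3%, under the 43.1% of all genes), all more negative in CD45+ cells, and Birc5, an inhibitor of apoptosis in mitosis, was the 1 gene called in a gate, at 1.43 in CD45- cells.

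Interferon genes were called lower in 66cl4 tumours in both gates more often than higher. Of 24 genes of the type I response, 12 were lower in CD45+ cells (9.27% of all genes) and 12 in CD45- cells (20%), 8 were shared, and 1, Ifih1, was higher in CD45- cells. The difference was called for 12 of the 24, or 50%, near the 43.1% of all genes. It was more positive in CD45+ cells for 5 (21.9% of all genes) and more negative for 7 (21.2%). Genes of the Ifit and Oas families resemble each other, so reads may be divided among them. Ifit3, an antiviral RNA-binding protein, was at 355, 558, 320, 451 and 367 in 66cl4 and 1419, 1164, 1682, 1693 and 2000 in 67NR CD45+ cells. CD45- cells had 86.3, 101, 57.4, 92.4 and 50.9 against 302, 444, 499, 457 and 797. The effects of −1.94 ± 0.24 and −2.65 ± 0.25 had no called difference (edgeR adjusted p = 0.089).

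Bst2, the tetherin that holds budding virus at the membrane, was called lower in CD45+ cells and not called in CD45- cells. It was at 424, 473, 425, 513 and 410 against 699, 900, 1045, 1137 and 1491 in CD45+ cells. CD45- cells had 715, 621, 599, 835 and 567 against 213, 346, 457, 363 and 497. The effects were −1.21 ± 0.20 in CD45+ cells and 0.86 ± 0.20 in CD45- cells, the latter under the fold threshold and not called. The difference was −2.07 ± 0.28 (edgeR adjusted p = 7.9e-06). Isg15, a ubiquitin-like protein, passed the fold threshold in CD45- cells but not in CD45+ cells, with effects of −0.77 ± 0.23 and −2.01 ± 0.25 and a difference of 1.24 ± 0.33. Ifih1, the RNA sensor MDA5, had effects of −0.96 ± 0.17 and 2.87 ± 0.19.

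The 250 bases before the start of 17 of these 24 genes were listed by RefSeq (GRCm38.p6). The interferon-stimulated response element, searched as GAAANNGAAA on both strands, was present before 8 of the 17 genes (47.1%), against 3.46% of the 27025 genes listed. The sequences before Ifit3, Bst2 and Isg15 are shown because the genes were called lower in both gates, in CD45+ cells and in CD45- cells, in that order, with each match in capitals. All are written on the strand of the gene, 5′ to 3′: Ifit3 at chr19:34583279-34583528 (+ strand), Bst2 at chr8:71537473-71537722 (− strand) and Isg15 at chr4:156200819-156201068 (− strand).
Ifit3: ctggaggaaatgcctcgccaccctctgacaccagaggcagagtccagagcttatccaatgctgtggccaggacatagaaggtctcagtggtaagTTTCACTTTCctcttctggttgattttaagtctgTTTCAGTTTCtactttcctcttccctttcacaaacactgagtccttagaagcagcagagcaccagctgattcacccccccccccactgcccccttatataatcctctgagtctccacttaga
Bst2: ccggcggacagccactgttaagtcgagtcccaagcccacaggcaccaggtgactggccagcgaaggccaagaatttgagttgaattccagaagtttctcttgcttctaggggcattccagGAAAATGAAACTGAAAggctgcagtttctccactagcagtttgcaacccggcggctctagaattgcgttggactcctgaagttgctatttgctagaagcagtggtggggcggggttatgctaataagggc
Isg15: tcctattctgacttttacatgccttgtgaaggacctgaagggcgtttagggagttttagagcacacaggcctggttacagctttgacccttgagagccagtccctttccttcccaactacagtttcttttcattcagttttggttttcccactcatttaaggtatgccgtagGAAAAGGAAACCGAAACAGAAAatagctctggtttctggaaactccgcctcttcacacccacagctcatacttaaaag
The match is a description of the letters in this window. It was found 2 times before Ifit3, on the other strand, and 2 times before Bst2 and 3 times before Isg15, where the matches overlap each other. Irf7, the master regulator of the type I response, had no match and was shared, at −1.76 ± 0.26 and −1.68 ± 0.26.

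Of 23 genes of the interferon-gamma response and MHC class I, 8 were lower in CD45+ cells (9.27% of all genes) of 66cl4 tumours and 12 in CD45- cells (20%). For this list the difference was called for 10 of the 23, or 43.5%, near the 43.1% of all genes. B2m, the light chain of MHC class I, was at 21952 to 23785 in CD45- cells of 66cl4 and 47799 to 58746 in those of 67NR, and H2-K1 and H2-D1, heavy chains of the same complex, were also in the class of CD45- cells only. Psmb8, a subunit of the immunoproteasome, went the other way, at 1.98 ± 0.27 in CD45- and −0.52 ± 0.25 in CD45+ cells. Of 9 genes of MHC class II, 0 were called in CD45+ cells and 7 were lower in CD45- cells (20% of all genes). All 7 had a 67NR CD45- level inside the leukocyte range, and 7 of the 10 leukocyte genes were lower in 66cl4 CD45- cells as well.

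Of 21 chemokines 14 had a called difference (66.7%, beside 43.1% of all genes), 12 of them more positive in CD45+ cells (21.9% of all genes). Of the 10 leukocyte genes 7 had a called difference (70%), all 7 more positive in CD45+ cells. The CD45- level was inside the leukocyte range for 6 of the chemokines, and the part of leukocytes in the CD45- gate was not tested. Ccl2, which draws monocytes, was at 5946 to 16141 in CD45+ cells of 66cl4 and 5445 to 7489 in those of 67NR, where the groups overlapped, and at 267 to 732 and 2274 to 3763 in CD45- cells. Of 23 growth factors 17 had a called difference (73.9%, beside 43.1%), 8 more positive and 9 more negative. Il6 was in the class of CD45- cells only, at 10.6 to 30.8 in CD45- cells of 66cl4 and 388 to 719 in those of 67NR. Tgfb1 was in the same class with the other sign, at 1453 to 1770 and 254 to 526. Vegfc, the lymphatic growth factor, and Ereg, an EGF receptor ligand, had shared signs of unequal size, with Vegfc at 1.10 ± 0.32 and 5.13 ± 0.34 and Ereg at −2.89 ± 0.44 and −8.28 ± 0.58. The 66cl4 CD45+ level of Vegfc was 6.90% of the CD45- level, inside the fibroblast range.

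Matrix proteases and their inhibitors had a called difference for 13 of 20 genes (43.1% of all genes), 9 of them more positive in CD45+ cells (21.9%). Mmp13, a collagenase, was in the class of CD45- cells only at 2.65, as was Mmp11 at 2.63, and Mmp12, the macrophage elastase, was in the class of CD45+ cells only at 1.32. Of 8 mast cell genes, 6 were lower in 66cl4 CD45+ cells (9.27% of all genes) and 8 in CD45- cells (20%), and the difference was called for all 8 (43.1%). The within-animal ratios of the tumours overlapped for 6 of the 8 and were separate for 2 (31.8% of all genes were separate). Hdc, which makes histamine in mast cells and basophils and also in neutrophils, was opposite, at 2.17 ± 0.50 and −2.90 ± 0.65. The 12 genes that the study named from its CD45+ comparison were all higher in 66cl4 CD45+ cells, which is not independent evidence since they were chosen on these samples. Of these 5 were also higher in CD45- cells (12.2% of all genes) and 7 had a called difference (43.1%). For 6 of them it was more positive in CD45+ cells (21.9%).

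**Figure D5:**
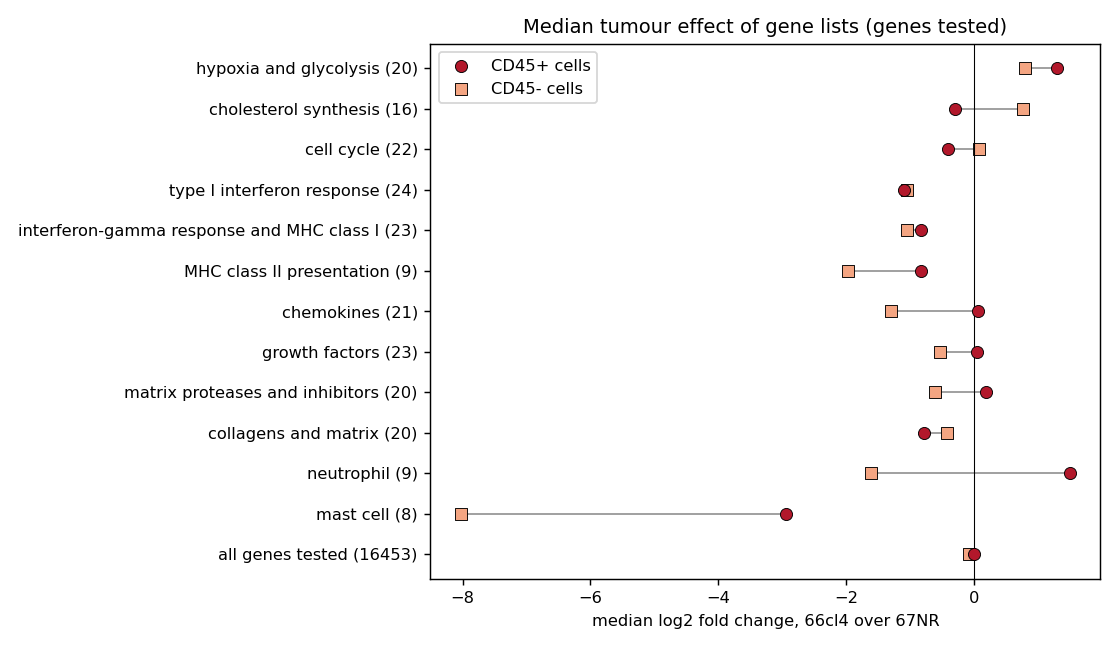
Median log2 fold change of 66cl4 over 67NR (x axis) of 12 gene lists and of all genes tested, in CD45+ cells (circles) and CD45- cells (squares), with the number of genes tested in brackets. Hypoxia and glycolysis lie above 0 in both gates, both interferon lists lie below 0 in both, and cholesterol synthesis and the neutrophil genes lie on opposite sides of 0.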

How the data were processed

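RNA from CD45+ and CD45- cells of 5 66cl4 and 5 67NR tumours was sequenced (20 libraries). Per the labels, reads were converted with bcl2fastq 2.2.20 and transcripts were quantified with Salmon 1.3.0. The values deposited by the authors are estimated counts per gene, brought from transcripts to genes by tximport and not normalised. The methods name a human reference, GRCh38, whereas the identifiers are those of mouse, and the mouse build is not given in the sources used here. Reads that fit several similar genes are divided among them, so gene families are uncertain. Symbols from GENCODE were matched for 51492 of 52783 genes, and 1291 kept their identifiers.

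The deposited estimated counts were rounded, which moved no value by more than 0.5. Library totals were 12960000 to 28080314, which limits low genes: 3 counts, the limit that a count of 0 allows, were 1.87 to 4.68 normalised counts, for counting error only. No pair of replicates agreed within sampling noise. The 20 libraries were fitted in 4 groups by edgeR 4.0.16 under R 4.3.3, whose quasi-likelihood F test was used with TMM factors, robust estimation and the filter filterByExpr (10 counts at least, 15 in total), with Benjamini-Hochberg adjustment over all genes. Differences between the gates were called at an adjusted p under 0.05, and effects within a gate also needed an absolute log2 fold change over 1. Errors are standard errors of the log2 fold change. Normalised counts use the size factors of DESeq2 1.42.0, and within-animal ratios a pseudocount of 1. The p-values set an effect against the spread between libraries within the 4 groups, with no term for the animal. Each tumour type is 1 cell line, so they do not cover the spread between cell lines. The fits were repeated using RLE factors, TMM within each gate, no filter or another filter, the Wald test of DESeq2, limma 3.58.1 with voom, separate fits for each gate, no fold threshold, and leaving out libraries. Tests were tried on simulated data. Python 3.11.15 and matplotlib 3.10.9 gave the figures.

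Groups follow the titles, since the recorded cell type contradicts the title for 66cl4 animals 5 and 6. Libraries of the same tumour and number come from 1 animal, so the number pairs them. Their deviations from the mean of the group correlated at 0.025 to 0.148 (5 animals of 66cl4) and at −0.0033 to 0.324 (5 animals of 67NR). The gene lists and the rule for named genes were chosen with earlier results of these data known. The rule took, among genes with a mean of at least 100 normalised counts in 1 tumour of each gate, and with libraries that did not overlap where the class asks for a call, and leaving out predicted genes, receptor and immunoglobulin segment families and Prl2c genes, those with the largest effects (for opposite and shared genes, by the smaller of the pair): 5 opposite genes of each orientation, 4 higher and 4 lower in CD45+ cells only, 3 and 3 in CD45- cells only and 3 and 3 shared. Members of the lists were added as examples. Xist and the genes near 0 in 1 group were picked after their values were seen.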

Additional observations from a re-analysis of the deposited data

Results flagged for a closer look

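The test of the difference between the gates itself set apart 7098 genes, among them 27 of the 30 genes named by the rule. The log2 differences of the opposite genes were 5.45 for Jam2, 5.75 for Cd36, 6.44 for Slc4a11, 5.74 for Cd80 and 8.71 for Vcan, and −3.92 for Abca9, −3.15 for Arhgef10, −3.02 for Tmem176a, −3.11 for Tmem176b and −3.64 for Enpp4. Among genes of CD45+ cells only they were 2.84 for Fn1, 2.74 for Dpep2, 2.40 for Ackr3, 2.39 for Tgm2, −3.25 for Vcam1, −3.59 for Spon1, −1.91 for Rab27b and −2.11 for Cald1. Among genes of CD45- cells only they were −5.61 for Fam213a, −5.73 for Mob3b, −5.49 for Tns4, 7.81 for Ass1, 6.26 for Gab3 and 6.14 for Tusc1. Among shared genes they were −3.90 for Sema3e, 4.55 for Adamtsl3 and 1.45 for Dpt.

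In 60 sets of 5 within-animal log2 ratios of CD45+ to CD45-, 2 had a single animal far from the other 4, and chance alone sets apart about 1 in 20. For Abca9 in 66cl4 tumours animal 6 was at −0.86, against 0.059 for the next animal. For Sema3e in 66cl4 tumours animal 3 was at −6.62, against −4.60 for the next.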

How the results depend on the processing

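The count of called differences (the tumour effect by gate) and of the classes stayed within 1.5 times their value under DESeq2's Wald test, RLE factors, TMM within each gate, both other filters, voom with the animal as a random block (7817 differences called) and separate fits for each gate. With the animal as replicate block, which the pairing of the libraries allows, 7150 differences were called, and the block changed no other call by over 1.5 times. An absolute log2 difference over 1 as a further threshold left 4476 of the 7098. Without 66cl4 animals 5 and 6, 220 genes had shared effects of different size and 127 were of CD45+ cells only. With no fold threshold on the effects within a gate, 569 genes were opposite, 1196 and 838 were shared with sizes not shown to differ and with different sizes, 530 were of CD45+ cells only and 3304 of CD45- cells only, since smaller effects were then let in. Leaving out 1 library at a time gave 6571 to 7320 called differences and 126 to 175 opposite genes. Leaving out genes inside the leukocyte or fibroblast range, a setting chosen after the data were seen, left 135 opposite, 299 and 256 shared, 207 of CD45+ cells only and 1694 of CD45- cells only.

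Of 810 values of the 30 named genes under the alternatives, 771 kept sign and call. The difference for Dpt (1.45) was not called in 22 of 27 settings, with values of 1.04 to 1.86 and edgeR or DESeq2 adjusted p of 0.0058 to 0.20. That for Krt8 was called in 6 settings, with values of −1.93 to −1.24. Pnma5, near 0 and not called in any fit, changed sign under DESeq2 (−0.037), with at least 10 counts in 5 libraries (−0.032) and without single libraries (−0.74 to 0.76). The cause was not tested. Depth limits the CD45- values of genes near the floor of 3 counts.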
